A study of Mus musculus with 20 samples.

Results

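The keratin gene family was followed across 5 cell populations sorted from mouse dorsal epidermis. Its members were taken by name, as every gene called Krt followed by a number and at most 1 letter, which gave 54 of the 53380 genes in the deposited table. A member was tested when it reached a normalized count of at least 10 in at least 3 libraries. This left 31 keratins among 17204 tested genes, and 23 keratins stayed below the filter.

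Bulk RNA-seq was made from cells separated by flow cytometry, to learn whether Thy1 sets apart a population of basal keratinocytes in the interfollicular epidermis, the skin between hair follicles. The 20 libraries comprised 4 of α6+Sca1+Thy1hi keratinocytes (Thy1hi), 4 of α6+Sca1+Thy1- keratinocytes (Thy1-), 3 of Thy1hi Sca1+ cells carrying a YFP lineage label (YFP+), 4 of stem cells of the hair follicle sorted as α6+Sca1-CD34+ (HFSCs) and 5 of dendritic epidermal T cells sorted as α6-Sca1lowThy1+ (DETCs). For every sample, the labels give the genotype Thy1.2CreERT2-Rosa26-EYFP, in which the Thy1 promoter drives an inducible Cre that switches on EYFP, and no treatment. The methods name wild-type C57BL/6J mice for the main sorts and tamoxifen-induced mice for lineage tracing, which the labels do not repeat. The labelled ages rise by 1 week from sample to sample, from 8 to 27 weeks, where the design text speaks of mice of 8 weeks, and the cell type label of the YFP+ samples reads Sca1- where their titles read Sca1+. The paper's captions speak of pooled mice in some places and count mice per population in others. Whether a library stands for a single mouse is therefore not settled. The p-values measure the spread between these libraries, which may be technical. Replicate numbers follow the sample titles. A pair of DETC libraries could be matched to their population only, and they are called DETC a and DETC b.

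Keratins are the intermediate filament proteins of epithelial cells, and each filament is built from pairs of 1 type I and 1 type II chain. In the epidermis, basal cells make Krt5 with Krt14, and cells that leave the basal layer switch to Krt1 with Krt10. Krt6a, Krt6b, Krt16 and Krt17 are known from wounded skin and from the hair follicle, Krt15 from the follicle bulge and the basal layer, and the hair shaft and the inner root sheath have keratins of their own.

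All libraries held 7781256 to 12982393 reads on genes, of which 13.1% to 41.5% lay on the ribosomal gene Rn45s. Of the remaining reads, keratins took 2.36% to 3.40% in Thy1hi, 2.05% to 2.74% in Thy1-, 3.03% to 4.0% in YFP+, 1.38% to 2.66% in HFSCs and 0.200% to 1.11% in DETCs. The lowest share within the HFSCs was that of replicate 4, which also had the lowest Rn45s share of all 20 libraries, and the lowest within the DETCs was that of DETC a. In Thy1- replicate 4, 3212 genes stood in the wrong row and were put back, among them 8 keratins, of which Krt80 and Krt83 were tested. Markers of T cells (10 genes) summed to between 23685 and 47458 normalized counts in DETCs and to at most 499 elsewhere, and those of the bulge (6 genes) to 5771 or more in HFSCs and at most 2131 elsewhere. Of the surface markers used for sorting, Thy1 ran from 511 to 775 in Thy1hi, 468 to 1546 in YFP+ and 1163 to 2260 in DETCs, and was at most 85.4 in Thy1- cells and HFSCs. Cd34 was at 1600 or more in HFSCs and at most 130 elsewhere. Itga6 ran from 598 to 2809 in DETCs, 2005 to 4460 in HFSCs and 4562 to 6564 in Thy1- cells. It ran from 9021 to 12210 in Thy1hi and 6917 to 12020 in YFP+. Ly6a, the gene of Sca1, ran from 185.3 to 260.5 in Thy1hi, 94.9 to 147.6 in Thy1- and 200.5 to 401.3 in YFP+. It was at most 78.5 in HFSCs and DETCs. The Thy1hi and Thy1- sorts were thus apart in Itga6 and Ly6a as well as in Thy1. Keratin transcripts were present in every DETC library.

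The family sits in a pair of gene clusters. The type I genes lie on chromosome 11 between 99232761 and 100269871 (27 members), apart from Krt18 on chromosome 15, and the 26 type II genes lie on chromosome 15 between 101349571 and 102004342 (mm10). RefSeq promoters on GRCm38.p6 matched 36 members, with 37 promoters. A TATA-like word (TATAAA or ATAAAA or TATATA, on the gene strand, overlapping matches counted once per promoter) was found in the last 50 bases before the start in 28 of these 37 promoters (75.7%), against 5.16% of all 32851 promoters. GGGCGG, the word of GC boxes, was found on either strand within 250 bases in 5.41% of the keratin promoters and 32.7% of all promoters, and TGANTCA, the word of AP-1 sites, in 5.41% and 6.75%. The promoters of 5 genes are shown because these carry the differences described below: Krt5 for the basal keratins, Krt10, Krt77 and Krt78 for the suprabasal ones and Krt24 for the HFSCs. Each line holds the 100 bases before the RefSeq start, 5′ to 3′ on the gene's strand (minus for all of them), and capitals mark the TATA-like word.
Krt5, chr15:101712906-101713005: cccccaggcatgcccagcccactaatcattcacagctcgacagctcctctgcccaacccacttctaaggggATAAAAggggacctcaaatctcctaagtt
Krt10, chr11:99389365-99389464: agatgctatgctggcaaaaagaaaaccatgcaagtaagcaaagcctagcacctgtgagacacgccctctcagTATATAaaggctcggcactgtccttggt
Krt77, chr15:101869706-101869805: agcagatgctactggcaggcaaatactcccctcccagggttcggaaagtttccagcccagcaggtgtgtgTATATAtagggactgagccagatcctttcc
Krt78, chr15:101954288-101954387: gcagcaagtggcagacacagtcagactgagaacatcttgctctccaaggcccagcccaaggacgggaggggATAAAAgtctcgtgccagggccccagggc
Krt24, chr11:99285263-99285362: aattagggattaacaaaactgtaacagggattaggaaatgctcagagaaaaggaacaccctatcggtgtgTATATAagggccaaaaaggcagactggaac
The word began 28 to 30 bases before the start in all of these. Among these 5, it was shared by Krt5, higher in Thy1hi than in Thy1- cells, and by Krt10, Krt77 and Krt78, lower there. The promoter of Krt79, also lower, had no such word. Neither had that of Krt14, whose RefSeq start lies 1518 bases from the annotated gene start. Krt1, Krt17 and Krt80 had no matched promoter.

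Basal keratins made up most of the keratin signal in nearly every library. To compare genes with each other, normalized counts were divided by the length of the annotated exons in kilobases. In Thy1hi cells, Krt14 led with 42858 ± 6541 normalized counts per kilobase (SD, n = 4), followed by Krt5 with 30599 ± 6913 and Krt15 with 12067 ± 5650. In HFSCs, Krt15 came first with 23693 ± 7527 (n = 4), and Krt5 (15603 ± 5596) and Krt14 (13458 ± 5274) followed. Krt14 and Krt5 held the first and second place in the other populations. The 3 basal genes together took 81.3% to 87.8% of the keratin signal per kilobase in Thy1hi, 51.0% to 67.3% in Thy1-, 61.9% to 68.5% in HFSCs and 49.7% to 57.6% in DETCs. The suprabasal genes took 3.17% to 11.5% in Thy1hi and 18.4% to 31.2% in Thy1-, so that the Thy1hi and Thy1- ranges were apart for both groups. In YFP+ cells, replicate 3 (87.0% basal, 5.09% suprabasal) resembled Thy1hi libraries, while the other replicates had 66.8% and 68.4% basal. The summed type I signal exceeded the summed type II signal in every library, with a ratio of 1.65 to 2.27.

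**Figure D1:**
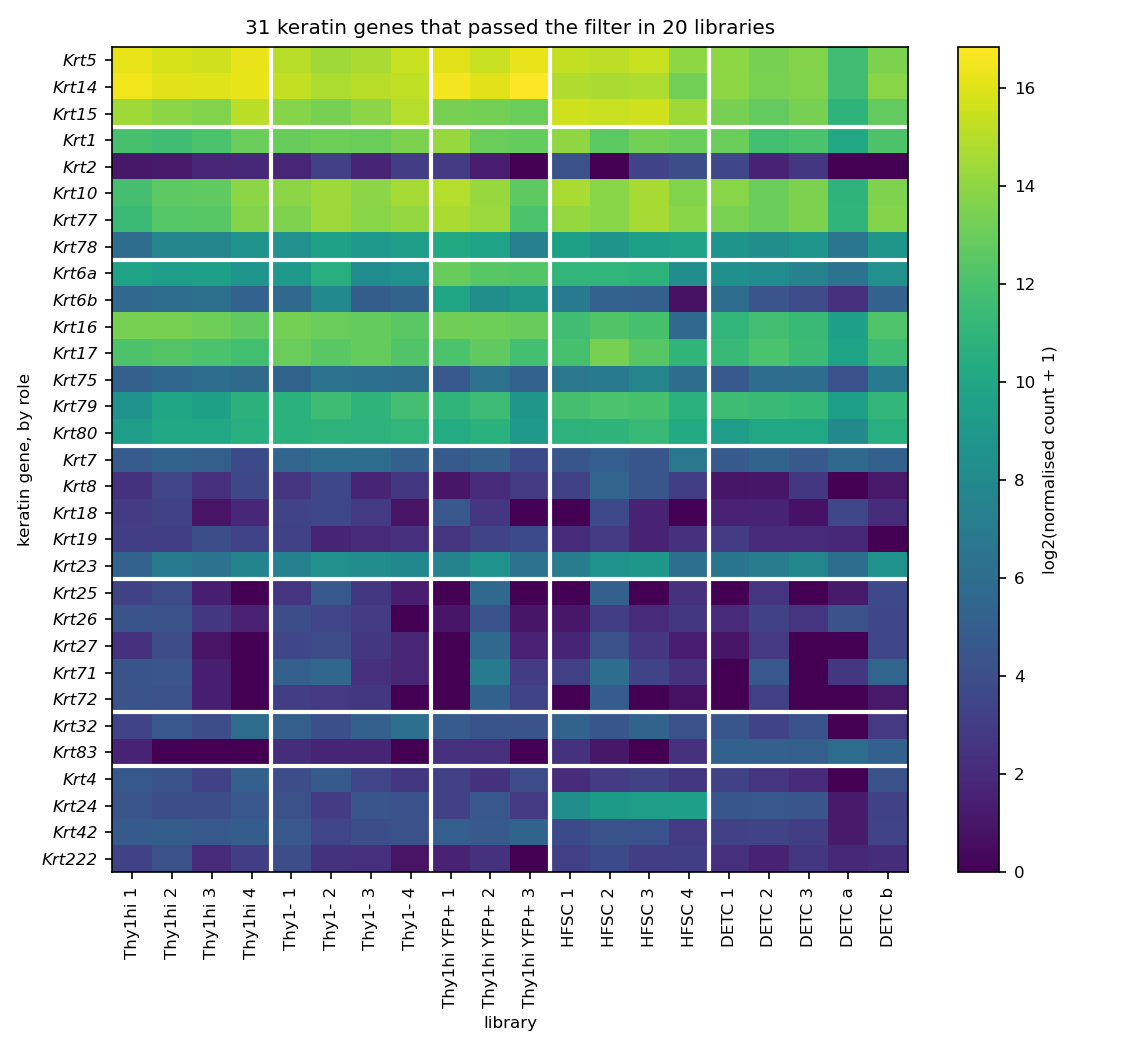
Heat map of log2(normalized count + 1) for the 31 tested keratins (rows, grouped by role from basal at the top to other keratins at the bottom) in the 20 libraries (columns, grouped by population). Krt5 and Krt14 are among the brightest rows in all populations, Krt24 stands out in the 4 HFSC libraries, and DETC a is darker than the other DETC libraries.

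**Figure D2:**
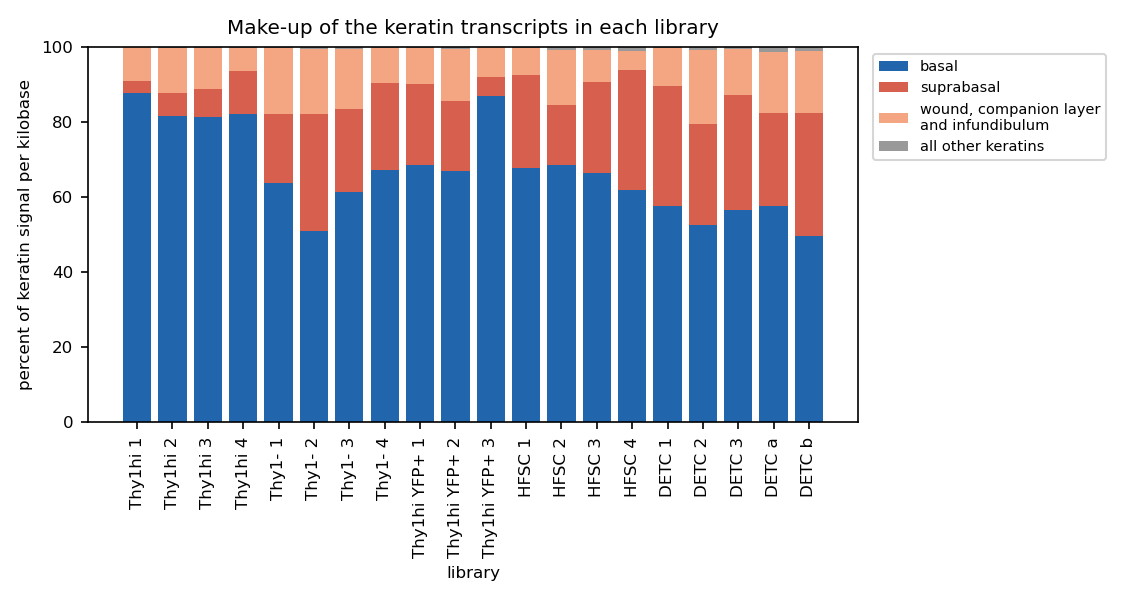
Stacked bars of the percent of keratin signal per kilobase in each library, split into basal, suprabasal, wound or companion layer or infundibulum, and all other keratins. Basal keratins fill 81.3% to 87.8% of the Thy1hi bars and 51.0% to 67.3% of the Thy1- bars.

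The main comparison set Thy1hi against Thy1- keratinocytes. Basal Krt5 and Krt14 lay higher in Thy1hi cells, while the suprabasal Krt1, Krt10, Krt77 and Krt78 lay lower. Krt17 and Krt79 of the wound and follicle group and Krt80, listed with them, lay lower too. With all 20 libraries in 1 limma fit and no pairing, 0 of 31 keratins were called at an adjusted p of 0.05. The share called of all tested genes was 0.337%. The edgeR and DESeq2 fits called 0 keratins as well (0.256% and 1.22% of all tested genes). Same-numbered libraries of these populations correlated in their deviations (r 0.293 to 0.716), but this range overlapped that of the other combinations (-0.651 to 0.514). The replicate number was made a block because of these correlations, so that choice came from the same data. With the block and only these populations in the fit, limma called 10 of 31 keratins, beside 6.61% of all tested genes. Of these, 2 were higher (3.42% of all tested genes) and 8 lower (3.19%). The block fitted over all populations called 0 (1.19% of all tested genes). The adjusted p-values given for this comparison are those of the 2-population block.

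Krt14, the type I partner in basal filaments, had 90985, 68124, 65455 and 76817 normalized counts in Thy1hi replicates 1 to 4 and 40609, 27508, 33318 and 38378 in Thy1- replicates 1 to 4. Krt5, its type II partner, had 80657, 59250, 49782 and 79215 in Thy1hi and 33620, 22526, 26111 and 43685 in Thy1-. Every Thy1hi library lay above every Thy1- library for both genes, as it did for 3.59% of all tested genes, and the change was 1.11 on the log2 scale for each (block SE 0.18; limma adjusted p = 0.0057 for Krt14 and 0.0059 for Krt5). Without replicate 4 of both populations, the changes were as large, 1.20 for Krt5 (adjusted p = 0.0413) and 1.15 for Krt14, which was no longer called (adjusted p = 0.0595). Krt15, a keratin of basal and bulge cells, had 21801, 15651, 12668 and 35169 in Thy1hi and 14116, 10910, 15460 and 31533 in Thy1-. These overlapped, with replicate 4 the highest of each population, and the change was 0.25 (adjusted p = 0.458).

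**Figure D3:**
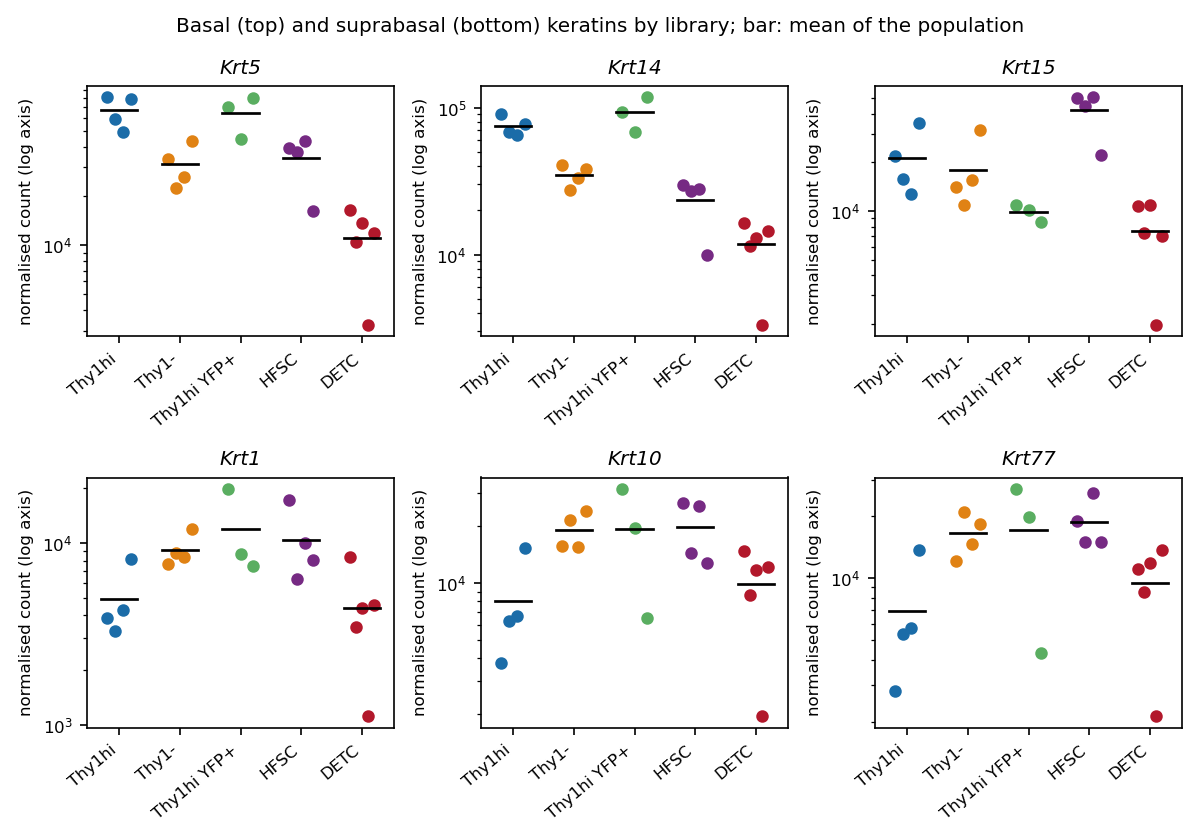
Normalized counts (log axis) of Krt5, Krt14 and Krt15 (top row) and Krt1, Krt10 and Krt77 (bottom row), 1 point per library and a bar at the mean of each population. Krt5 and Krt14 lie higher in all 4 Thy1hi than in all 4 Thy1- libraries, Krt15 is highest in HFSCs, and the DETC point below the others is DETC a.

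The suprabasal genes went the other way. Krt10, the type I partner in suprabasal filaments, had 3777, 6247, 6677 and 15383 normalized counts in Thy1hi and 15638, 21555, 15479 and 23997 in Thy1-. All Thy1hi values lay below all Thy1- values, as for 3.17% of all tested genes, with the highest Thy1hi value just under the lowest Thy1- value, and the change was -1.42 (SE 0.20, adjusted p = 0.0034). Krt1, the type II partner, had 3878, 3282, 4291 and 8169 in Thy1hi and 7641, 8834, 8346 and 11846 in Thy1-. Here Thy1hi replicate 4 lay within the Thy1- range, and the change was -0.98 (SE 0.14, adjusted p = 0.0034). Krt77, a type II keratin of suprabasal cells and sweat ducts, had 2812, 5365, 5708 and 13704 in Thy1hi and 12067, 21028, 14674 and 18350 in Thy1- (-1.46, adjusted p = 0.0052). Krt78, a type II keratin of differentiating cells, had 65.1, 213, 206 and 399 in Thy1hi and 370, 787, 502 and 682 in Thy1- (-1.60, adjusted p = 0.0031). In both, Thy1hi replicate 4 alone reached into the Thy1- range. Krt2, the remaining gene of this group, stayed at 8.10 or less in all 8 libraries and was not called.

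Of the 7 genes listed under wound, companion layer and infundibulum, 3 fell. Krt79, found in the infundibulum, the mouth of the follicle, had 391, 996, 753 and 1815 normalized counts in Thy1hi and 1767, 3159, 2022 and 3552 in Thy1- (-1.56, SE 0.16, adjusted p = 0.00078). Only replicate 4 of Thy1hi overlapped with Thy1-. Krt80, a type II keratin linked to differentiating cells, was counted in this list. It had 692, 1092, 1041 and 1584 in Thy1hi and 1757, 2020, 1928 and 2138 in Thy1- (-0.89, adjusted p = 0.0039), with no overlap. The last of these is the value that was put back in its row, where the deposited order gives 0.82 and a change of 1.66. Krt17, induced in wounds and present in the follicle, had 4435, 5199, 4212 and 3431 in Thy1hi and 8110, 5929, 7297 and 4859 in Thy1- (-0.59, adjusted p = 0.0241), and was lower in all 4 pairs with overlapping ranges. Without replicate 4 of both populations, its change was as large (-0.62) but not called (adjusted p = 0.105). Krt16, the usual partner of Krt6 in wounded skin, and Krt6a itself were not called (0.24 and 0.30).

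Among keratins of simple epithelium, Krt23 was called. It is a type I keratin of glandular epithelia, and it had 38.6, 120, 86.2 and 189 normalized counts in Thy1hi and 167, 364, 302 and 229 in Thy1- (-1.44, SE 0.25, adjusted p = 0.0080). Thy1hi replicate 4 lay above the lowest Thy1- value. Krt42, a type I keratin of the nail unit, had 24.4 to 30.3 in Thy1hi and 10.4 to 23.1 in Thy1-, apart in range but not called (0.75, adjusted p = 0.207). In all, 12 of the 31 keratins were lower in all 4 pairs and 4 were higher in all 4, beside 13.5% and 13.6% of all tested genes. The median change over the 31 keratins was -0.43, beside -0.018 over all tested genes, and it moved between -0.11 without Thy1- replicate 2 and -0.68 without Thy1hi replicate 2.

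**Figure D4:**
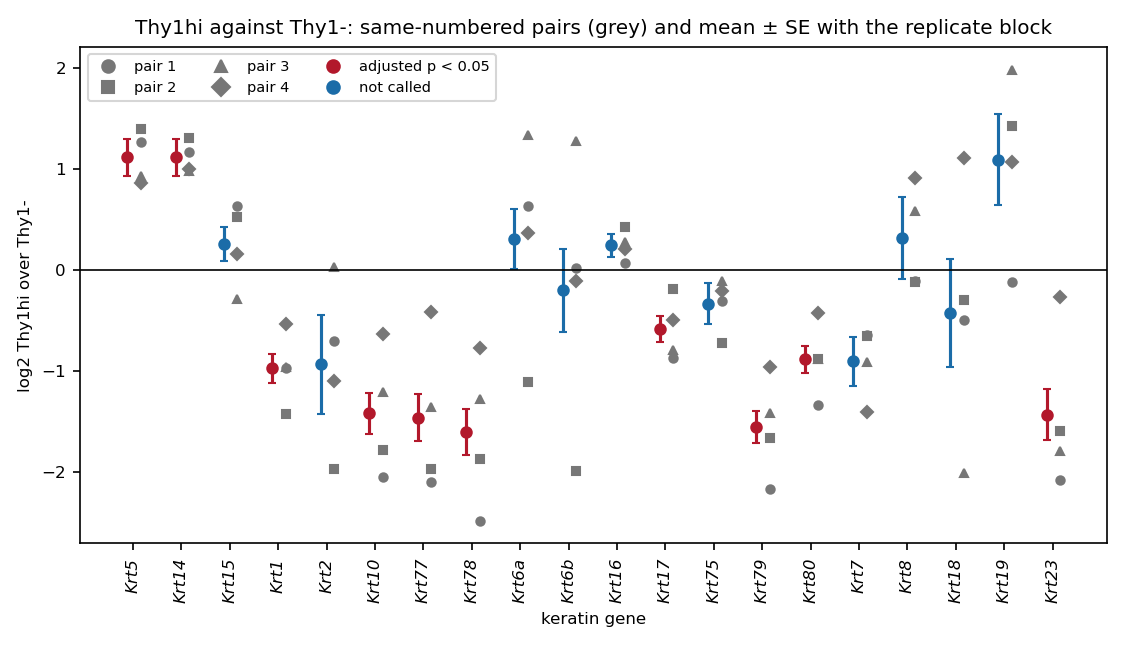
Log2 ratio of Thy1hi over Thy1- for 20 keratins of the basal, suprabasal, wound and simple epithelium groups. Grey symbols are the 4 same-numbered pairs, and coloured points are the mean and standard error of the 2-population fit with the replicate block, red where the adjusted p is under 0.05. The 2 red points above 0 are Krt5 and Krt14, and the 8 red points below 0 lie between -0.59 and -1.60.

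Some markers of other cells also differed between Thy1hi and Thy1- cells. The block fit called 3.19% of all tested genes lower and 3.42% higher in Thy1hi cells. Of 10 genes of differentiated keratinocytes outside the family, it called 8 lower and 1 higher. Their summed level ran from 6991 to 12061 normalized counts in Thy1hi and from 11592 to 16689 in Thy1-. The 6 bulge markers were all lower in the mean and 1 was called with the block, and their sums were apart (682 to 987 in Thy1hi, 1906 to 2131 in Thy1-). Of 5 Langerhans cell markers, 4 were called lower with the block (sums of 439 to 1088 in Thy1hi, 847 to 1715 in Thy1-). Of 6 fibroblast markers, 4 were called higher (186 to 1946 in Thy1hi, 123 to 215 in Thy1-). Among 4 tested melanocyte and 3 endothelial markers, none was called. Of 4 sebocyte markers 1 was called lower, and of 10 T cell markers 1 higher. None of 3 Merkel cell markers passed the filter. Fewer cells of a type and less RNA per cell cannot be told apart in such bulk samples, and the part of these cells in the keratin differences was not tested.

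Against HFSCs, Thy1hi cells differed most at Krt24. The Thy1hi libraries are those of the preceding comparison, and they also serve in the comparisons with DETCs and YFP+ cells. Of 31 keratins, 4 were called, beside 13.4% of all tested genes, with 1 higher (6.51% of all tested genes) and 3 lower (6.86%). Krt24, a type I keratin known from differentiating keratinocytes, had 324, 566, 684 and 711 normalized counts in HFSC replicates 1 to 4 and 21.0, 15.8, 14.6 and 22.3 in Thy1hi. The HFSC values exceeded those of all 16 other libraries, in which the highest was 23.2, and the change was -4.84 (SE 0.58, adjusted p = 1.1e-05). Krt14, the basal type I chain, had 29855, 26882, 28025 and 9872 in HFSCs, below all Thy1hi libraries (1.78, SE 0.44, adjusted p = 0.0091). The Krt14 call was lost with quantile normalization (1.5, adjusted p = 0.0673) and with the 2-population block (1.78, adjusted p = 0.135). Krt78 had 765, 415, 714 and 818 in HFSCs, above all Thy1hi libraries (-1.83, adjusted p = 0.0398). Krt79 had 3803, 4322, 3950 and 1752 in HFSCs, where replicate 4 lay within the Thy1hi range (-1.93, adjusted p = 0.0184).

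Other keratins parted Thy1hi cells and HFSCs without a call. Krt16 had 3301, 5044, 3965 and 51.9 in HFSCs against 10664, 10914, 9029 and 6865 in Thy1hi (2.75, SE 0.93, adjusted p = 0.0546). The HFSC values all lay lower, and replicate 4 lay far below the rest. Krt4, a keratin of wet-surface epithelia, had 3.46, 6.52, 8.55 and 5.61 in HFSCs and 24.3, 18.4, 8.94 and 34.9 in Thy1hi (1.59, adjusted p = 0.134). Krt77 had 18893, 14909, 26012 and 15048 in HFSCs, above every Thy1hi library (-1.64, adjusted p = 0.0633). Krt15 had 50076, 44723, 50366 and 22299 in HFSCs, so that only replicate 4 lay among the Thy1hi values (-1.01, adjusted p = 0.160). Krt5 had 39645, 37535, 43698 and 16239, below all Thy1hi libraries (1.04, adjusted p = 0.126). Of the suprabasal pair, Krt1 had 17136, 6333, 10011 and 8039 (-1.07, adjusted p = 0.136) and Krt10 had 26638, 14523, 25600 and 12738 (-1.42, adjusted p = 0.0998), and both overlapped with Thy1hi. Krt17, with 3926, 10586, 5559 and 2058, spread to either side of the Thy1hi values (-0.13, adjusted p = 0.873), and Krt6a, with 2216, 2161, 1926 and 316, lay above them in all but replicate 4 (-0.96, adjusted p = 0.277). Counting all members, 6 keratins lay higher and 4 lower in all Thy1hi than in all HFSC libraries, beside 9.46% and 9.81% of all tested genes.

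Some calls turned on single libraries. Without HFSC replicate 4, Krt14 (1.40), Krt24 (-4.71) and Krt79 (-2.23) stayed called, Krt6a was added (-1.64, adjusted p = 0.0293) and Krt78 was not called. Leaving out replicate 4 of Thy1hi, Thy1- and HFSCs, chosen after the data were seen, raised the called keratins to 10 (2 higher, 8 lower), while the share called of all tested genes rose from 13.4% to 18.4%, and added Krt15 (-1.57, adjusted p = 0.0219), Krt16 (1.33, adjusted p = 0.0425), Krt10, Krt77, Krt23 and Krt6a. Without Thy1hi replicate 1 or replicate 3, 2 keratins stayed called in each case, Krt14 and Krt24 (9.0% and 9.72% of all tested genes called).

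Thy1- cells differed from HFSCs at 1 keratin, Krt24, beside 6.08% of all tested genes called and 3.52% called lower. It had 17.0, 6.94, 20.5 and 18.0 normalized counts in Thy1-, below all HFSC libraries (-5.14, SE 0.58, adjusted p = 1.6e-05). Krt16, with 10182, 8162, 7471 and 5965 in Thy1-, lay above all HFSC libraries without a call (2.51, adjusted p = 0.110). No other keratin lay above the HFSC range in all Thy1- libraries, as 6.16% of all tested genes did, and none but Krt24 lay below it throughout, as 7.42% did. Krt15 and Krt14 changed by -1.27 (adjusted p = 0.108) and 0.67 (adjusted p = 0.352). Krt17 changed by 0.46, Krt5 by -0.072 and Krt1 by -0.097, and Krt10 by -0.0027 with an SE of 0.56. Krt6a, with 551, 1516, 287 and 366 in Thy1-, was not called (-1.26, adjusted p = 0.184) but was when HFSC replicate 4 was left out (-1.94, adjusted p = 0.0193), when replicate 4 of Thy1- and Thy1hi was left out too (-1.75, adjusted p = 0.0256) and with the block over all populations (-1.26, adjusted p = 0.0411). The median over keratins was 0.044, beside -0.68 for Thy1hi against HFSCs; both comparisons use the same HFSC libraries.

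**Figure D5:**
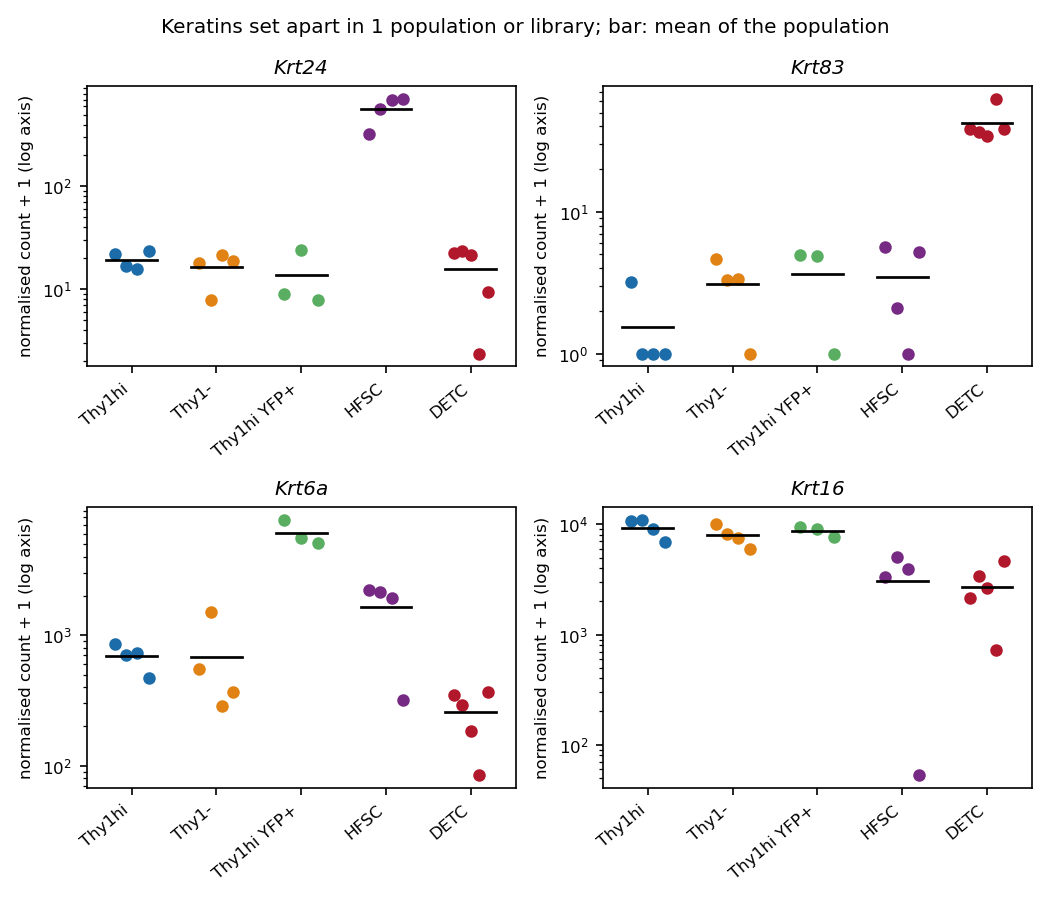
Normalized count + 1 (log axis) of Krt24, Krt83, Krt6a and Krt16 in each library, with a bar at the mean of each population. Krt24 is high in HFSCs, Krt83 in DETCs and Krt6a in YFP+ cells, and a single HFSC library, replicate 4, has little Krt16.

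DETCs are T cells of the epidermis and were sorted without integrin-α6. In these libraries, the basal keratins were much lower than in Thy1hi cells, whereas the suprabasal ones were not called in the fit without a block. Of 31 keratins, 9 were called, 8 lower and 1 higher, beside 36.6% of all tested genes (16.6% lower, 19.9% higher). Krt14 had 16495, 11383 and 12940 normalized counts in DETC replicates 1 to 3, 3319 in DETC a and 14562 in DETC b, or 15.6% of the Thy1hi mean (-2.85, SE 0.42, adjusted p = 1.5e-05). Krt5 had 16494, 10499, 13617, 3248 and 11818, or 16.6% (-2.75, adjusted p = 2.5e-05). Both lay below all Thy1hi libraries, with DETC a the lowest. In all, 7 of 31 keratins lay below the Thy1hi range in every DETC library (14.4% of all tested genes) and 1 above it (18.8%). Krt15 had 10762, 7272, 10834, 1969 and 6950, or 35.4% (-1.60, adjusted p = 0.0066), again with no overlap. Without DETC a, the 3 stayed called, with changes of -2.45 for Krt14, -2.35 for Krt5 and -1.17 for Krt15.

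Krt10, in contrast, had 14756, 8623, 11715, 1952 and 12125 normalized counts in DETCs, within and around the Thy1hi range (0.21, adjusted p = 0.813). Krt1 had 8374, 3452, 4364, 1113 and 4530 (-0.34, adjusted p = 0.614). Krt77 and Krt78 changed by 0.45 and 0.76 without a call. In the 2-population block, DETC a, DETC b and Thy1hi replicate 4 have no partner. That fit called 15 keratins, 6 higher and 9 lower, beside 42.4% of all tested genes. Those higher included Krt10 (1.08, adjusted p = 0.0072), Krt77 (1.24, adjusted p = 0.0018) and Krt78 (1.48, adjusted p = 0.0062), but not Krt1 (0.40, adjusted p = 0.140). Krt79 had 3094, 2658, 2364, 722 and 2299, more than each Thy1hi library in all but DETC a (1.23, adjusted p = 0.0628), and it was called higher without DETC a (1.60, adjusted p = 0.0126). DETC a held the most T cell marker signal (47458) and the least of differentiated keratinocyte markers (1976), beside 8245 to 13558 in the other DETC libraries. The part of keratinocytes in the DETC gate was not tested.

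Krt6a had 350, 290, 183, 83.7 and 369 in DETCs, below all Thy1hi libraries (-1.57, adjusted p = 0.0262), and Krt16 had 2150, 3381, 2652, 718 and 4639, also below all of them without a call (-2.0, adjusted p = 0.0835). Krt17 had 870 to 4264 (-0.81, adjusted p = 0.134). The other called keratins were low throughout. Krt42 had 8.81, 10.2, 7.91, 1.37 and 9.61 in DETCs and 26.5, 30.3, 24.4 and 30.1 in Thy1hi (-1.93, adjusted p = 0.0014). Krt19 had 6.85, 3.05, 3.16, 2.74 and 0 beside 7.73, 7.90, 15.4 and 9.70 (-1.64, adjusted p = 0.0206). Neither overlapped. Krt19 reached 10 only in Thy1hi replicate 3 and in YFP+ replicates 2 and 3 (10.1 and 12.9). Without that Thy1hi library it would have failed the filter, so its test is not independent of that selection. Krt4 had 8.81, 5.08, 3.16, 0 and 16.8 (-1.93, adjusted p = 0.0241), and Krt8 had 0.98, 1.02, 5.53, 0 and 1.20 beside 4.42, 10.5, 4.06 and 11.6 (-1.82, adjusted p = 0.0262), both with overlap. The Krt42 call held in every fit that left out 1 library. Krt4, Krt6a and Krt8 were not called without DETC a (-1.33, -1.22 and -1.53). Krt19 was not called without DETC b (-1.20) or Thy1hi replicate 3 (-1.44), Krt4 without Thy1hi replicate 1 (-1.83) or 4 (-1.66), Krt8 without Thy1hi replicate 2 (-1.64) or 4 (-1.60), and Krt6a without DETC replicate 3 (-1.5) or Thy1hi replicates 1 to 3 in turn (-1.55 to -1.46). Krt8 and Krt19 are keratins of simple epithelium, and 16.9% of the 100-base exon stretches of Krt8 also occur in the pseudogene Krt8-ps.

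Krt83, a type II hair shaft keratin, was the only one called higher. It had 37.2, 35.6 and 33.2 normalized counts in DETC replicates 1 to 3, 61.7 in DETC a and 37.2 in DETC b, against 2.21 in 1 Thy1hi library and 0 in the others. All 15 libraries of the other populations had 4.62 or less. Over all libraries, 191 reads in DETCs stood against 2 in Thy1hi cells, a ratio of 77.6 per size factor (95% exact interval 21.2 to 645, counting error only), 8 in Thy1- cells (ratio 20.6, interval 10.3 to 48.5) and 11 in HFSCs (14.9, 8.15 to 30.4). The fitted change, which depends on the pseudocount, was 4.93 (SE 0.65, adjusted p = 4e-06), and 4.78 without DETC a. Krt83 passed the filter only through the DETC libraries, so this test is not independent of that selection and lends the difference no further support. Among the DETC libraries only, Krt83 was highest in DETC a, the library with the smallest share of keratin reads, as were Krt7, Krt18 and Krt26 among the tested keratins. Of its 100-base windows (all stretches of that length in the annotated exons), 5.17% occur in other genes, 4.14% in Krt86. The other tested hair shaft keratin, Krt32, had 0 to 21.5 in DETCs and 9.94 to 60.2 in Thy1hi (-1.47, adjusted p = 0.114).

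YFP+ cells were compared with the Thy1hi sort. No keratin was called by limma (0 of 31, beside 0.0116% of all tested genes) or by edgeR. DESeq2 called 1, Krt6a (0.593% of all tested genes). Krt6a, a type II keratin of wounded skin and the companion layer, had 7616, 5537 and 5089 normalized counts in YFP+ replicates 1 to 3 and 852, 701, 726 and 470 in Thy1hi replicates 1 to 4. The groups were far apart, with a mean 8.85 times higher in YFP+ cells (3.15, SE 0.61, adjusted p = 0.101). It was called with DESeq2 (3.14, adjusted p = 9.1e-05), with a pseudocount of 10 (adjusted p = 0.0291) and with only these populations in the fit (adjusted p = 0.0012), and also with either block. Krt6b, its close relative, had 934, 314 and 485 in YFP+ and 53.0, 61.9, 74.0 and 37.8 in Thy1hi (3.22, SE 1.03, adjusted p = 0.321), called only with these populations alone (adjusted p = 0.0158). They were the keratins above the Thy1hi range in every YFP+ library, as were 4.92% of all tested genes. Krt6a and Krt6b cannot be fully separated, since 26.6% of the windows of Krt6a occur in Krt6b and 30.1% of those of Krt6b in Krt6a.

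Krt16 and Krt17, which accompany Krt6a in wounded skin, did not differ by more than their error. Krt16 had 9467, 9035 and 7623 in YFP+ cells (-0.088, adjusted p = 0.985), and Krt17 had 4218, 6859 and 3576 (0.14, adjusted p = 0.955). Per kilobase, Krt16 exceeded Krt6a by 19.2 to 24.1 times in Thy1hi libraries but by 1.92 to 2.52 times in YFP+ ones. HFSC replicates 1 to 3 lay at 2.30 to 3.61, and HFSC replicate 4 at 0.254. Krt16 shares 21.2% of its windows with the gene Gm11597.

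Krt15 was lower in all YFP+ libraries (10936, 10164 and 8496) than in all Thy1hi libraries without a call (-1.01, adjusted p = 0.564), as 5.55% of all tested genes were. Krt14 and Krt5 changed by 0.29 and -0.061. Krt10 had 31643 and 19651 in YFP+ replicates 1 and 2 and 6538 in replicate 3, and Krt1 had 19799, 8651 and 7503 (1.19 and 1.24, adjusted p = 0.571 and 0.472). Replicate 3 also had the lowest sum of differentiated keratinocyte markers, 10746 against 21436 and 22236. The lineage label and the mice cannot be told apart in this comparison, and the labels do not say which samples belong to which sequencing batch.

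The balance between partners was examined within each library, where the size factor cancels. The log2 ratio of Krt14 to Krt5 was 0.18 ± 0.18 (SD, n = 4) in Thy1hi, 0.18 ± 0.25 in Thy1- and -0.56 ± 0.14 in HFSCs. Every HFSC library lay below every Thy1hi and every Thy1- library, a difference of 0.74 in both comparisons (exact permutation p = 0.0286, the smallest that 4 against 4 libraries allow; adjusted over 10 ratio tests 0.143). Per kilobase, Krt14 was 0.760 to 0.941 times Krt5 in HFSCs and 1.21 to 1.64 times in Thy1hi. YFP+ cells had the highest ratio (0.53 ± 0.11, n = 3), above all Thy1hi libraries (difference 0.35, exact permutation p = 0.0571, the smallest that 3 against 4 allow, adjusted 0.171). The ratio in DETCs, 0.075 ± 0.14 (n = 5), differed from Thy1hi by -0.11 (exact permutation p = 0.341, adjusted 0.487).

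The log2 ratio of Krt10 to Krt1 was 0.61 ± 0.45 in Thy1hi, 1.06 ± 0.17 in Thy1-, 0.96 ± 0.37 in HFSCs, 1.16 ± 0.32 in DETCs and 0.55 ± 0.70 in YFP+ cells. The largest differences were 0.55 for DETCs against Thy1hi (exact permutation p = 0.0794, adjusted 0.171) and -0.45 for Thy1hi against Thy1- (exact permutation p = 0.0857, adjusted 0.171). The Thy1hi libraries varied among themselves, from 2.03 to 3.97 times as much Krt10 as Krt1 per kilobase, with replicate 1 the lowest.

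Keratins of the inner root sheath and the hair shaft were scarce. The 8 genes of the inner root sheath, which guides the growing hair, together took at most 0.170% of the keratin signal per kilobase in any library. Of these, 5 were tested (Krt25, Krt26, Krt27, Krt71 and Krt72), and none was called in any comparison. All of these 5 but Krt26 were highest in YFP+ replicate 2, where Krt71 had 130 normalized counts beside 0 and 6.94 in the other YFP+ libraries. HFSC replicate 2 had 68.4 of Krt71 beside 4.20 to 9.62 in the other HFSCs. Of the 15 hair shaft genes, 2 passed the filter. The 23 keratins below the filter reached at most 20.1 normalized counts in any library, and 15 of them never reached 10.

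Partners of keratin filaments were counted from fixed lists. The share of all tested genes called in the same fit stands beside each count, and nothing particular to the lists is read from them. Of 12 proteins that link filaments to desmosomes, hemidesmosomes or other filaments, 11 were in the table and tested. In DETCs against Thy1hi (16.6% of all tested genes lower, 19.9% higher), 8 were lower (Plec, Dsp, Dst, Evpl, Ppl, Pkp1, Pkp3 and Jup, changes of -1.81 to -0.75) and 2 higher, Macf1 (1.32), which ties microtubules to actin, and Pkp2 (1.88), the plakophilin that many cell types make. In Thy1hi against Thy1- cells with the block, 1 of 11 was called, beside 6.61% of all tested genes, namely Plec (0.61, adjusted p = 0.0302), the plectin that anchors keratins to hemidesmosomes. Against HFSCs, 1 was called lower in Thy1hi, Macf1 (-0.97, adjusted p = 0.0052; 6.86% of all tested genes). Macf1 missed the threshold in Thy1- (-0.73, adjusted p = 0.0512). Of the 57 keratin-associated proteins of the hair shaft (Krtap genes), 1 passed the filter, Krtap3-2, and it was not called in any comparison.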

How the data were processed

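Bulk RNA-seq of 20 libraries was used. Per the paper's methods, STAR aligned the reads to mm10 and featureCounts counted them. The deposited signal is counts per gene after the authors' DESeq2 normalization, that is, divided by 1 size factor per library (0.729 to 1.43). Divided by the value of 1 read, 100% of values were whole to within 0.01 plus 1e-05 of the value, a weak check where the size factor is near 1 or the value large. The rows of Thy1- replicate 4 were put back in order (r with the other Thy1- libraries 0.0563 as deposited, 0.935 restored). limma 3.58.1 (R 4.3.3) with an expression trend tested log2(value + 1) of 17204 genes, with the 20 libraries in a single two-sided fit, Benjamini-Hochberg adjustment and a threshold of 0.05. Changes are log2 differences on this scale and understate those of low genes. Partner ratios were tested by two-sided exact permutation (scipy 1.17.1). edgeR 4.0.16 and DESeq2 1.42.0 on the recovered reads, other pseudocounts, filters, scalings and blocks, and leaving out libraries were alternatives. The limma fit without a block was tested on simulated data, and the block, edgeR and DESeq2 fits were not.

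Same-numbered Thy1hi and Thy1- libraries correlated positively in all 4 pairs (r 0.293 to 0.716), though the 12 other combinations overlapped this range (-0.651 to 0.514). The replicate block was used there for that reason. In the other comparisons, same-numbered libraries did not all correlate positively, and the reported fits have no block. Exon lengths came from GENCODE M21 (mm10), whose positions equal the table's for 35 of 54 keratins. Marker keratins (7), called members and, per comparison, the 3 largest rises and falls without overlap were given in full, other members by role group. Members and lists were chosen with earlier results of these data known.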

Additional observations from a re-analysis of the deposited data

Results flagged for a closer look

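A library was set apart when its gap to the nearest library of its population was large for the population's range (Dixon's 95% limit, log2 values). The rule was applied to populations of 4 or 5 libraries, so YFP+ cells, with 3, were not examined. Of 124 keratin and population combinations tested, 19 were, where chance gives about 1 in 20. Flags within 1 library are not independent tries, so the count cannot be weighed against that rate. DETC a held 9 of them and HFSC replicate 4 held 6.

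DETC a was low at Krt10 (1952 normalized counts, the others 8623 to 14756), Krt14 (3319, 11383 or more), Krt15 (1969, 6950 or more), Krt5 (3248, 10499 or more), Krt77 (2117, 8598 or more), Krt78 (98.8, 322 or more), Krt79 (722, 2299 or more) and Krt42 (1.37, 7.91 or more), and high at Krt83 (61.7, the others 33.2 to 37.2). Whether this library differs in its cells or its preparation was not tested.

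HFSC replicate 4 was low at Krt14 (9872, the others 26882 to 29855), Krt15 (22299, 44723 or more), Krt16 (51.9, 3301 or more), Krt5 (16239, 37535 or more), Krt6a (316, 1926 or more) and Krt79 (1752, 3803 or more). Its Krt24 was the highest of the HFSCs (711).

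HFSC replicate 2 was high at Krt222 (13.0, the others 7.48 to 8.08) and Krt72 (28.2, the others at most 0.700). Thy1- replicate 4 had 0 of Krt72 (the others 5.52 to 7.30). Thy1hi replicate 1 had 2.21 of Krt83, where the others had 0.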

How the results depend on the processing

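Of the alternatives for the number of keratins called, 16 of 22 stayed within 1.5 times the reported number for Thy1hi against HFSCs, 15 of 22 for Thy1- against HFSCs and 19 of 21 for DETCs. For Thy1hi against Thy1-, 20 of 22 alternatives called 0, so the calls described there rest on the 2-population block. For YFP+ cells, 14 of 19 called 0. The replicate block with only the compared populations gave 10 calls for Thy1hi against Thy1- (8 without both replicates 4), 2 for Thy1hi against HFSCs, 15 for DETCs and 1 for YFP+ cells, where the reported numbers were 0, 4, 9 and 0. Over all tested genes, these fits called 6.61% (3.77% without both replicates 4), 7.96%, 42.4% and 0.0523%. The block over all populations gave 10 for Thy1hi against HFSCs, 4 for Thy1- against HFSCs and 1 for YFP+ cells, and 22.0%, 15.6% and 0.936% of all tested genes, beside 13.4%, 6.08% and 0.0116% reported. Only in the first comparison did all same-numbered libraries correlate positively (0.293 to 0.716), and other combinations there reached 0.514. In the other comparisons, same-numbered libraries correlated by -0.118 to 0.147 (DETCs), -0.232 to 0.162 (Thy1hi and HFSCs), -0.225 to 0.165 (Thy1- and HFSCs) and -0.0402 to 0.333 (YFP+). DESeq2 gave 7 calls for Thy1hi against HFSCs, 2 for Thy1- against HFSCs and 1 for YFP+ cells (19.7%, 14.0% and 0.593% of all tested genes). In YFP+ cells a pseudocount of 10 gave 1 and the fit of only these populations 2 (0.145% and 0.093% of all tested genes). Rescaling to the same total gave 2 for Thy1- against HFSCs (7.28% of all tested genes). A mean of at least 50 gave 4 for DETCs, where fewer genes were tested (49.9% of them called). Leaving out replicate 4 of HFSCs, Thy1hi and Thy1- gave 10 for Thy1hi against HFSCs and 4 for Thy1- against HFSCs. These fits called 18.4% and 17.3% of all tested genes. Without replicate 4 of Thy1hi and Thy1-, Thy1- against HFSCs gave 2 (15.0% of all tested genes). With single libraries left out, calls ranged from 0 to 0 (Thy1hi against Thy1-, YFP+), 2 to 6 (Thy1hi against HFSCs), 1 to 2 (Thy1- against HFSCs, with 2 without HFSC replicate 4 or Thy1- replicate 4) and 7 to 9 (DETCs). Of all tested genes, those fits called 0.0756% to 0.221% (Thy1hi against Thy1-) and 0% to 0.0233% (YFP+). For the others these shares were 9.0% to 15.0% (Thy1hi against HFSCs), 2.97% to 11.4% (Thy1- against HFSCs) and 31.8% to 36.3% (DETCs).

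Krt80 in Thy1hi against Thy1-, called lower with the block, was 1.66 in the deposited row order, where its value in 1 library belongs to another gene. The other reversals were of uncalled changes. In Thy1- against HFSCs, the same total gave 0.12 for Krt1, 0.22 for Krt10 and 0.15 for Krt5, and quantile normalization 0.20 for Krt10 and 0.19 for Krt5. Krt1 in DETCs was 0.23 with the block over all populations and 0.40 with that over 2, Krt17 in YFP+ cells -0.075 with the former, and Krt5 in YFP+ cells 0.080 with quantile normalization and 0.027 with the latter. With single libraries left out, the ranges that crossed 0 were -0.023 to 0.56 (Krt15) and -0.0038 to 0.79 (Krt6a) in Thy1hi against Thy1-, -0.52 to 0.27 (Krt17) in Thy1hi against HFSCs, -0.30 to 0.18 (Krt1), -0.19 to 0.16 (Krt10) and -0.40 to 0.077 (Krt5) in Thy1- against HFSCs, -0.64 to 0.089 (Krt1) and -0.087 to 0.72 (Krt10) in DETCs, and -0.14 to 0.33 (Krt17) and -0.23 to 0.18 (Krt5) in YFP+ cells. The ratio of Krt14 to Krt5 ranged from -0.12 to 0.075 (Thy1hi against Thy1-), 0.67 to 0.82 (Thy1hi against HFSCs), 0.69 to 0.87 (Thy1- against HFSCs), -0.18 to -0.035 (DETCs) and 0.27 to 0.42 (YFP+). That of Krt10 to Krt1 ranged from -0.55 to -0.23, -0.46 to -0.14, -0.015 to 0.22, 0.33 to 0.65 and -0.37 to 0.32 in the same order. The cause of these shifts was not tested. The median change of keratins against HFSCs in Thy1hi was 0.10 without a filter. Over the named keratins and all alternatives, 1050 values kept their direction and side of the threshold, 67 were called where the reported one was not, 40 were no longer called and 31 reversed.

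Depth limits the hair shaft, inner root sheath and nail keratins, which rest on few reads. Intervals of read ratios cover counting error only.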
